A study of Mus musculus with 21 samples.

Results

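The 10 genes described here are known to respond to glucocorticoids or to FoxO factors: Fkbp5, Tsc22d3, Zbtb16, Sgk1, Klf9, Cdkn1a, Fbxo32, Trim63, Klhl38 and Arrdc2. They were the rows of the raw count table whose Ensembl IDs carry these symbols, and all 10 were found among its 22136 genes and passed the filter on low counts, which left 12626 genes for testing. Klhl38 and Arrdc2 were put on the list because both were higher with 8 weeks of Sema after TAC in an earlier look at these data. Their values in that comparison, and in those that share its libraries, are therefore given as a description with no test. The question was whether the other 8 genes shared that difference. No hormone level, FoxO protein or binding was measured, so the name of the list rests on what is known of the genes.

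The libraries came from the hearts of wild-type male C57BL/6J mice that had undergone transverse aortic constriction (TAC), which narrows the aortic arch and puts the left ventricle under pressure, or a sham operation. Semaglutide (Sema), an agonist of the receptor for glucagon-like peptide 1, was injected intraperitoneally each day for the whole 8 weeks after surgery or for only the last 4, and mice without Sema received vehicle. The groups were Sham (n = 6) and, with n = 3 each, TAC 8W + Sema 8W, Sham + Sema 8W, TAC 8W, TAC 8W + Sema 4W and Sham + Sema 4W. The mice were 8 weeks old on arrival and were acclimated for 1 week. The unit of the daily dose of 60 differs between the sources, mg/kg in the series text and µg/kg in the methods. The titles of the Sham + Sema 8W samples name no duration, and 8 weeks was taken for them. The labels call the material cardiomyocytes, whereas the methods describe ventricular tissue. All 10 cardiomyocyte markers on a fixed list were detected in every group, with a summed level of 35707 to 123629 CPM, and all 10 fibroblast and all 10 endothelial markers were detected in every group as well, so the samples are called ventricular tissue here. In bulk tissue, fewer cells of a type and less RNA per cell cannot be told apart.

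Glucocorticoids bind the glucocorticoid receptor, a nuclear receptor that is held in the cytoplasm by heat shock proteins and their partners and that moves to DNA once the hormone is bound. Its direct targets include genes that dampen the receptor itself, and in striated muscle it works together with FoxO factors, which insulin signalling through Akt keeps out of the nucleus. FoxO factors drive the muscle-specific ubiquitin ligases of atrophy, and in the heart these ligases are known for the turnover of sarcomere proteins and for limiting hypertrophy.

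The members fall into 3 sets by role. Fkbp5 (a co-chaperone that lowers the receptor's affinity for hormone), Tsc22d3 (GILZ, an anti-inflammatory leucine zipper protein), Zbtb16 (PLZF, a zinc finger repressor), Sgk1 (a kinase related to Akt) and Klf9 (a zinc finger factor) are targets of the glucocorticoid receptor. Cdkn1a (p21, an inhibitor of cyclin-dependent kinases), Fbxo32 (atrogin-1) and Trim63 (MuRF1), both muscle ubiquitin ligases, are FoxO targets. Klhl38 encodes a Kelch-like protein of striated muscle, and Arrdc2 an arrestin-domain protein.

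RefSeq promoters (GRCm38.p6, 250 bases before to 50 bases after each start) were at hand for 7 members with 15 starts in all, and those of Klhl38, Fbxo32 and Zbtb16 were not used here. They were searched on both strands for the core recognised by FoxO factors (GTAAACA or TGTTTAC), which was in 3.65% of 32851 promoters of the same length, and for the hexamer of the glucocorticoid response element (AGAACA or TGTTCT), which was in 19% of them. The 2 motifs share no overlapping match in the members. Trim63 and Klf9 are shown since they were the members with a FoxO core, and the Sgk1 start at which the hexamer was most frequent and the Arrdc2 promoter, which held neither, are shown beside them. The capitals mark the matches.
Trim63, chr4:134314870-134315169, plus strand: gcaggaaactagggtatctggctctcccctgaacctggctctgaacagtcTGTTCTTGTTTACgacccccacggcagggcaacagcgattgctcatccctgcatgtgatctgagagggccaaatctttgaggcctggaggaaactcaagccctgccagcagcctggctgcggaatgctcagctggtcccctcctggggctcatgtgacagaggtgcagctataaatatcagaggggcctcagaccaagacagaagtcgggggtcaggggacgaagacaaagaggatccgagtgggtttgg
Klf9, chr19:23140976-23141275, plus strand: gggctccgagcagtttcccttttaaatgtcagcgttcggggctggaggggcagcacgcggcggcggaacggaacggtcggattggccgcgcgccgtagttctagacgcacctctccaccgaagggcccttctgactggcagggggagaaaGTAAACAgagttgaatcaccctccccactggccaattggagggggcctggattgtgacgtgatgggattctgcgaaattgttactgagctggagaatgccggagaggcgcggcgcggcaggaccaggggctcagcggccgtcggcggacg
Sgk1, chr10:21993640-21993939, plus strand: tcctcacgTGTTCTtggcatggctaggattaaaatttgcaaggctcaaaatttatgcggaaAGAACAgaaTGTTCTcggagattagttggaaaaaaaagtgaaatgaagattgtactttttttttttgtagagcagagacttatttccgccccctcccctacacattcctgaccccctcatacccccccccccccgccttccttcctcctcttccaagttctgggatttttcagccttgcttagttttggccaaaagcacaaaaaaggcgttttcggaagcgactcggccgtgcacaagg
Arrdc2, chr8:70839671-70839970, minus strand: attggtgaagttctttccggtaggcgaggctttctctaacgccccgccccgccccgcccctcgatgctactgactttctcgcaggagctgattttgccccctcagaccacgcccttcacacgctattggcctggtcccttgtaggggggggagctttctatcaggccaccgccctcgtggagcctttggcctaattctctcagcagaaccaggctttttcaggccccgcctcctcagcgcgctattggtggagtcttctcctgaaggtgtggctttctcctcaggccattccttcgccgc
The Trim63 window held the hexamer 200 bases before the start and, directly after it, the FoxO core at 194 bases. The Klf9 window held the FoxO core 100 bases before the start. The Sgk1 window held the hexamer 242, 189 and 180 bases before the start, and 2 of its other 5 starts held 1 hexamer each. Of the 3 Tsc22d3 starts, 1 held a hexamer 185 bases upstream, while Fkbp5, Arrdc2 and the 2 Cdkn1a starts held neither motif. A match is a description of the letters and not a site of binding.

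Klhl38 (ENSMUSG00000022357) lies on chr15:58314573-58324169 and Fbxo32 (ENSMUSG00000022358) on chr15:58175879-58214932 of GRCm38, both on the minus strand, 99.6 kb apart with no gene wholly between them in GENCODE M21. The antisense gene Gm15943 overlaps 9481 bases of Klhl38 and 458 bases of Fbxo32. It was not in the count table, and because the strand setting of the counting is not given in the sources used here, reads from Klhl38 and from its antisense partner cannot be told apart. Fkbp5 and Cdkn1a also overlap annotated transcripts on the opposite strand (AC154912.1 and AC167363.2).

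Total counts ran from 8897837 to 17170139 per library, and members drew from 1452 (Arrdc2) to 50577 (Trim63) counts over the 21 libraries. The lowest count of a member in any library was 3 (Fbxo32 in Sham + Sema 4W replicate 3). The libraries fell into 2 sets. In the 12 libraries of TAC 8W + Sema 8W, TAC 8W, Sham + Sema 8W and Sham 1 to 3, genes encoded by the mitochondrial genome took 20.2 to 40.8% of counts, and in the other 9, those of both 4-week groups and of Sham 4 to 6, they took 43.8 to 54.9%. The shams are therefore kept apart, although no label states which set a sham belongs to. TAC 8W + Sema 4W replicate 3 stood apart from the other 2 libraries of its group, with a rank correlation across genes of 0.44 between gene length and the library's deviation from the mean of all libraries, against -0.18 and -0.17. Sham + Sema 8W replicate 3 stood apart likewise (-0.36 against 0.16 and 0.22) and had the 40.8% mitochondrial share. Values without these libraries are given for some of the member results that rest on them, and not for the pathway genes.

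Levels are CPM, counts relative to the library total as scaled by TMM factors, and differences are log2 fold changes with their standard error (SE) from 1 edgeR quasi-likelihood fit of all 21 libraries, called at a Benjamini-Hochberg adjusted p under 0.05 over all genes tested. Per kilobase of exon, Trim63 was the most abundant member in Sham 1 to 3 at 65.3 ± 7.66 RPKM (SD, n = 3), followed by Klhl38 at 9.96 ± 2.22 RPKM and Sgk1 at 6.93 ± 0.948 RPKM. Tsc22d3 had 4.49 ± 0.539 RPKM and Fbxo32 2.40 ± 0.488 RPKM. Cdkn1a (1.69 ± 1.20), Klf9 (1.51 ± 0.172), Zbtb16 (0.922 ± 0.584), Arrdc2 (0.831 ± 0.354) and Fkbp5 (0.820 ± 0.117 RPKM) were the least abundant. By mean ± SD, Klhl38 and Sgk1 overlapped, and so did the 5 lowest members, except that Klf9 was above Arrdc2 and Fkbp5. Across the 21 libraries the CPM of a member varied least for Klhl38 (7.53-fold between the lowest and the highest library) and most for Fbxo32 (47.7-fold).

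**Figure D1:**
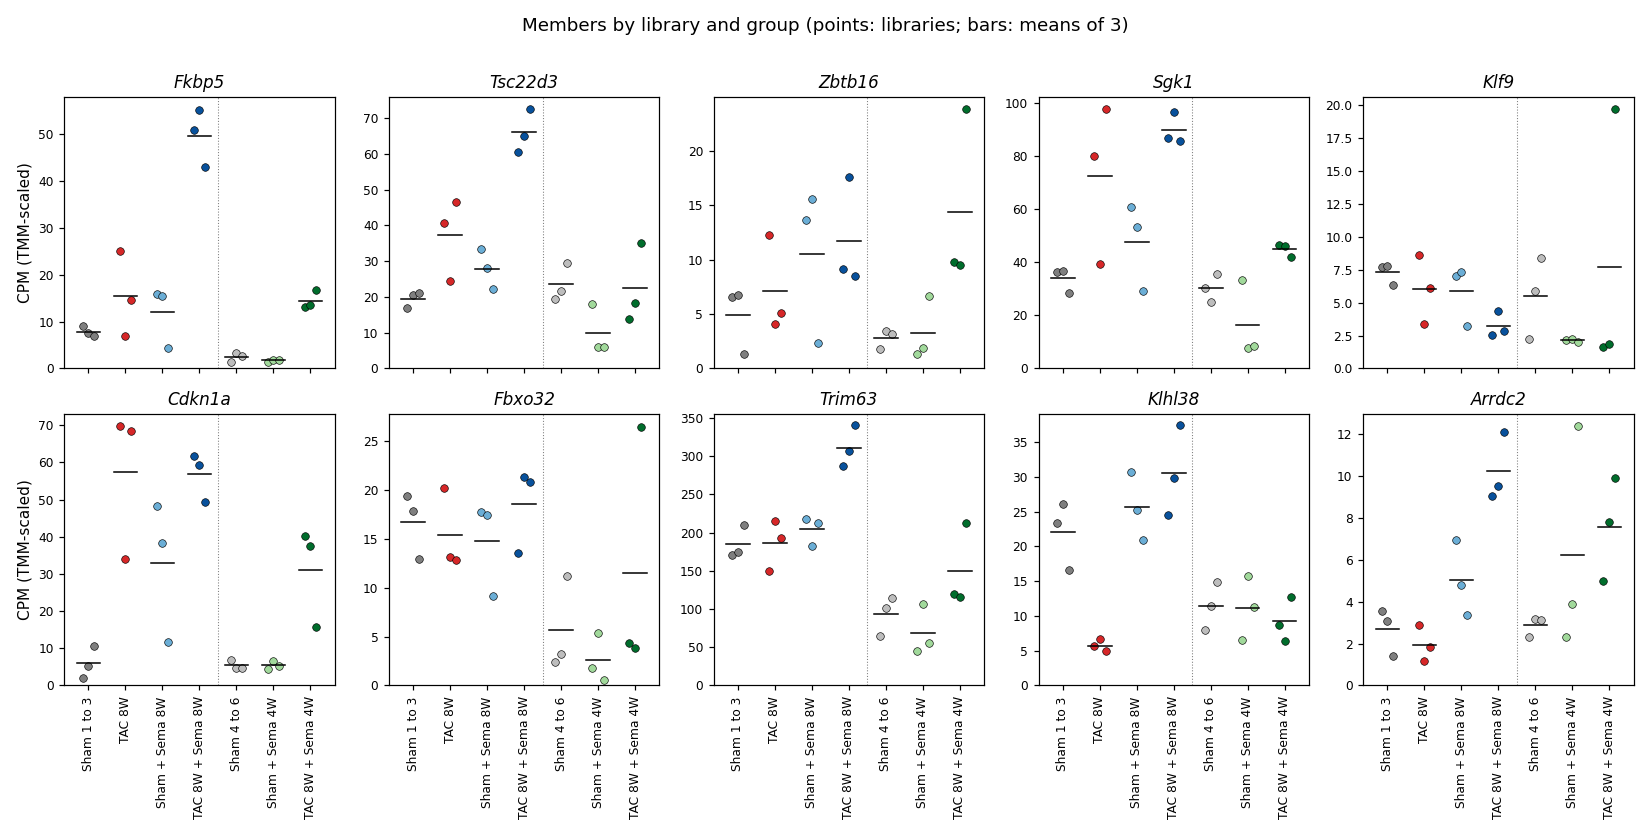
Level of each member in CPM (TMM-scaled, linear axis from 0) in the 21 libraries. Points are libraries, bars are means of 3, and the dotted line separates the 12 libraries with the lower mitochondrial share (left) from the other 9. In TAC 8W + Sema 8W, the 3 Klhl38 points sit between 24.6 and 37.4 CPM, above the 4.98 to 6.64 CPM of TAC 8W, and the Fkbp5 points at 42.9 to 55.1 CPM are above every other library.

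Klhl38 and Arrdc2, whose difference with 8 weeks of Sema led to the list, were both higher in TAC mice that received it, 5.33-fold for Klhl38 and 5.10-fold for Arrdc2, but from different starting points. Klhl38 had 5.62, 6.64 and 4.98 CPM in TAC 8W and 24.6, 29.8 and 37.4 CPM in TAC 8W + Sema 8W, a log2 fold change of 2.41 (SE 0.34). In Sham 1 to 3 it had 23.3, 26.2 and 16.6 CPM, so the treated TAC libraries overlapped the shams and the untreated TAC libraries lay below both, with a log2 fold change of -1.94 (SE 0.33) for TAC 8W against Sham 1 to 3. Arrdc2 had 2.89, 1.15 and 1.84 CPM in TAC 8W and 9.07, 9.54 and 12.1 CPM in TAC 8W + Sema 8W, a log2 fold change of 2.35 (SE 0.51). Its 3.58, 3.08 and 1.40 CPM in Sham 1 to 3 overlapped TAC 8W, with a log2 fold change of -0.43 (SE 0.51), so that every treated TAC library was above every sham of that set. Without TAC 8W + Sema 8W replicate 3, the library with the highest Arrdc2 level of its group, its log2 fold change was 2.22.

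Of the other 8 members, Fkbp5, Tsc22d3 and Trim63 were higher in every library in the same comparison, for which all members are described without a test. Fkbp5 had 25.0, 7.0 and 14.5 CPM in TAC 8W and 50.8, 55.1 and 42.9 CPM in TAC 8W + Sema 8W. Its log2 fold change was 1.67 (SE 0.41), and the groups did not overlap. Tsc22d3 had 40.8, 24.4 and 46.6 CPM against 60.5, 65.0 and 72.6 CPM, a log2 fold change of 0.82 (SE 0.37). Trim63 had 149.9, 216 and 193 CPM against 287, 306 and 340 CPM, a log2 fold change of 0.74 (SE 0.30). For these 3 genes each treated TAC library was above all the other 18 libraries.

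The remaining 5 members overlapped between TAC 8W and TAC 8W + Sema 8W. Zbtb16 had 4.07 to 12.2 CPM in TAC 8W and 8.48 to 17.6 CPM with Sema, a log2 fold change of 0.70 (SE 0.65). Sgk1 had 39.2 to 97.7 CPM and 85.5 to 96.5 CPM (log2 fold change 0.31, SE 0.41), and its TAC 8W libraries were the more scattered ones. Fbxo32, the ligase next to Klhl38 on the chromosome, had 12.9 to 20.3 CPM and 13.6 to 21.4 CPM (0.26, SE 0.64). Cdkn1a had 34.0 to 69.7 CPM and 49.3 to 61.8 CPM (-0.02, SE 0.47), so its level with TAC was nearly the same with and without Sema. Klf9 had the lowest log2 fold change of the members, with 3.37 to 8.62 CPM against 2.53 to 4.39 CPM (-0.90, SE 0.66). In all, 8 of 10 members had the higher value with Sema, as did 43.1% of all genes, with a median log2 fold change of 0.72 against -0.12 over all genes tested. Of all genes, 0.483% were called higher and 5.18% lower in this comparison, against 3 (Klhl38, Arrdc2 and Fkbp5) and 0 members, and 8.46% were higher in every library against 5 of 10 members, and since the list was chosen on this comparison nothing is read from these counts. Fkbp5 was past the threshold in only 12 of 18 other settings, with log2 fold changes of 1.33 to 2.24. Of 10 fibroblast markers, 4 were called lower in the same comparison, with overlapping summed levels of 1804 to 2119 CPM against 1478 to 4172 CPM in TAC 8W, and their part was not tested. Libraries of TAC 8W + Sema 8W also held relatively more of the GC-rich genes (rank correlation across genes of 0.20 to 0.56, against -0.17 to -0.08 in TAC 8W). With that trend and the length trend removed, 55 genes were called higher and 148 lower instead of 61 and 654 (208 and 871 with DESeq2), and the log2 fold changes of Klhl38, Arrdc2 and Fkbp5 were 2.17, 2.15 and 2.03.

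**Figure D2:**
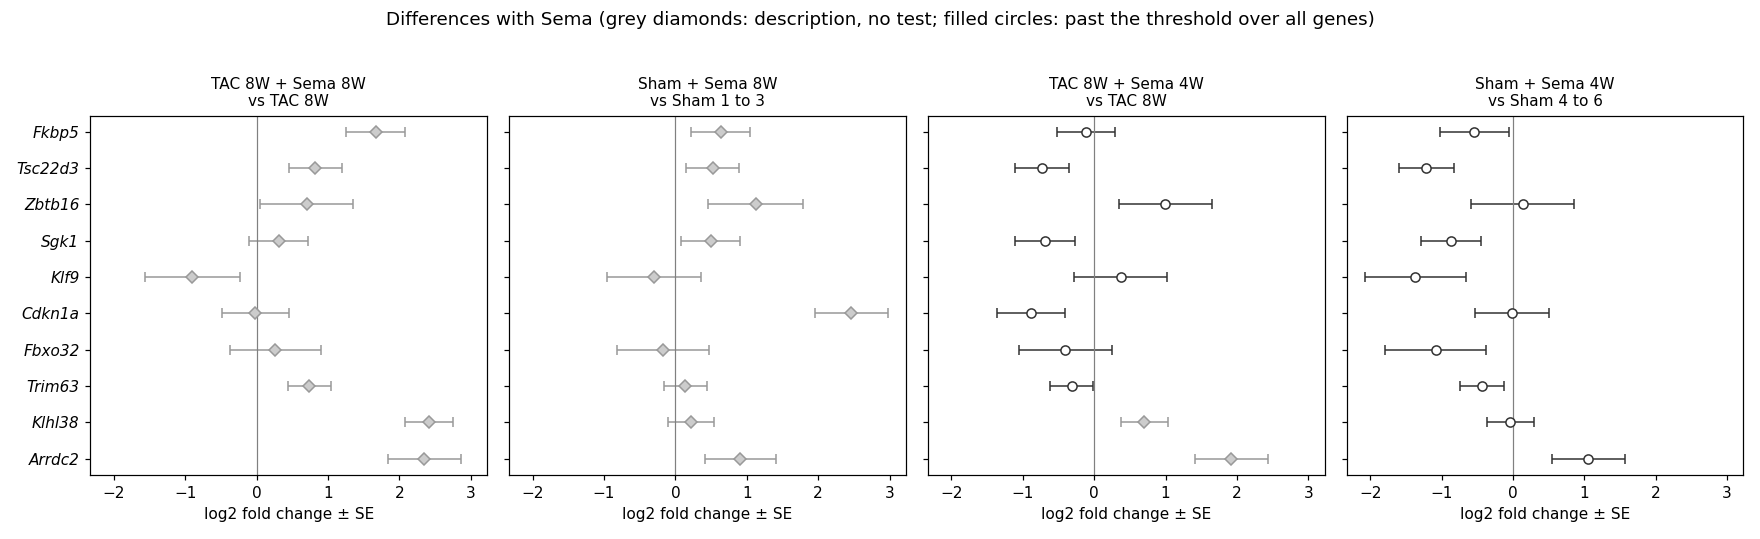
Differences of the members between mice with and without Sema, as log2 fold change ± SE from the edgeR fit. Grey diamonds are values given as a description with no test, and circles are tested members, filled where past the adjusted threshold over all 12626 genes. With 8 weeks of Sema after TAC, Klhl38 (2.41), Arrdc2 (2.35) and Fkbp5 (1.67) lie farthest to the right, and no circle is filled.

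In sham mice, the member that differed most with 8 weeks of Sema was Cdkn1a. Cdkn1a had 2.14, 5.32 and 10.6 CPM in Sham 1 to 3 and 48.4, 38.4 and 11.7 CPM in Sham + Sema 8W, a log2 fold change of 2.47 (SE 0.51), and its lowest treated library, replicate 3, was only just above the highest sham. Without that library the value was 2.86. Tsc22d3 was the other member that was higher in every library (4.93% of all genes were), at 33.4, 28.2 and 22.2 CPM against 16.8, 20.5 and 21.2 CPM (0.52, SE 0.38). Klhl38 had 30.7, 25.2 and 20.99 CPM, which overlapped Sham 1 to 3 (0.22, SE 0.32), and Arrdc2 had 6.93, 4.81 and 3.39 CPM, which overlapped as well (0.91, SE 0.50). Fkbp5 at 15.9, 15.4 and 4.40 CPM and Zbtb16 at 13.7, 15.6 and 2.37 CPM were split, with replicate 3, the library with the high mitochondrial share, below the other 2. Their log2 fold changes were 0.64 (SE 0.41) and 1.13 (SE 0.67), or 1.01 and 1.58 without that replicate. Sgk1 overlapped as well (0.49, SE 0.42). With edgeR, 0 of 12626 genes and 0 members passed the threshold here (456 genes, 3.61%, and 1 member at an unadjusted p under 0.05). limma-voom called 0 genes, and DESeq2 called 3 genes and 1 member, Cdkn1a.

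The last 4 weeks of Sema gave another picture for the members in TAC mice, but the groups compared lie in different library sets, so that the set and the drug cannot be told apart. Arrdc2 had 5.01, 7.83 and 9.94 CPM in TAC 8W + Sema 4W, above the 1.15 to 2.89 CPM of TAC 8W, with a log2 fold change of 1.92 (SE 0.51), given as a description, and was the 1 member higher in every library, where 11.3% of all genes were. Klhl38 had 8.71, 6.39 and 12.7 CPM, which overlapped TAC 8W (0.70, SE 0.33) and stayed below the 24.6 to 37.4 CPM of the 8-week treatment. Fkbp5 had 13.2, 13.6 and 16.6 CPM, within the range of TAC 8W (-0.11, SE 0.41, adjusted p = 0.89 by edgeR). Of the 8 tested members, 0 passed the threshold with edgeR, limma-voom or DESeq2, against 7.25% of all genes called by edgeR, and 0 had an unadjusted p under 0.05, against 24% of all genes. With the difference between the sham sets subtracted, Arrdc2 had a log2 fold change of 1.83, Klhl38 of 1.64 and Fkbp5 of 1.53. Zbtb16 was then at 1.79, Fbxo32 at 1.16 and Trim63 at 0.68, while Tsc22d3, Sgk1 and Cdkn1a stayed below 0. With the subtraction, 0 members were called. The 4-week values of Klhl38 and Fkbp5 therefore depended on how the library sets were treated. Fibroblast markers were called lower for 7 of 10 here, with a summed level of 720 to 1089 CPM in TAC 8W + Sema 4W against 1478 to 4172 CPM in TAC 8W, and macrophage markers for 2 of 9, with 62.6 to 119 CPM against 105 to 416 CPM. The part of either was not tested. Without TAC 8W + Sema 4W replicate 3, the library that stood apart, Klf9 changed from 0.37 (SE 0.65) to -1.76, and Klf9, Tsc22d3 (-1.18) and Fbxo32 (-1.89) were then called lower, as were 1956 of 12817 genes.

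In sham mice of the second set, 4 weeks of Sema went with no member past the threshold. Tsc22d3 had 19.5, 21.8 and 29.5 CPM in Sham 4 to 6 and 18, 6.11 and 5.93 CPM in Sham + Sema 4W, a log2 fold change of -1.22 with SE 0.39 and an adjusted p of 0.35 by edgeR, and was lower in every treated library. Klf9 had 2.25, 5.87 and 8.41 CPM against 2.15, 2.21 and 2.04 CPM (-1.37, SE 0.71, adjusted p = 0.36) and was the other member lower in every library, where 9.84% of all genes were. Arrdc2 had 2.34, 3.20 and 3.11 CPM against 2.33, 3.90 and 12.4 CPM (1.06, SE 0.51, adjusted p = 0.35), with replicate 3 as the highest Arrdc2 level of all 21 libraries. Klhl38 had 8.01, 11.5 and 14.9 CPM against 6.54, 15.8 and 11.3 CPM (-0.04, SE 0.33, adjusted p = 0.96). The groups of Arrdc2 and of Klhl38 overlapped. With edgeR, 0 members and 0 genes were called (2 members and 1798 genes, 14.2%, at an unadjusted p under 0.05), and limma-voom and DESeq2 called 0 genes as well.

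Without Sema, TAC was followed by a higher level of Cdkn1a and, as a description, a lower level of Klhl38. In all, 6 of 10 members had the higher value, as did 57.5% of all genes. Of the 5 glucocorticoid targets, 4 had the higher value and 0 passed. Cdkn1a had 69.7, 34.0 and 68.5 CPM in TAC 8W against 2.14, 5.32 and 10.6 CPM in Sham 1 to 3, a log2 fold change of 3.27 with SE 0.52 and an adjusted p of 0.0021 by edgeR. Sgk1 had 80.1, 39.2 and 97.7 CPM against 36.4, 36.9 and 28.6 CPM (1.09, SE 0.42, adjusted p = 0.25), and Tsc22d3 had 40.8, 24.4 and 46.6 CPM against 16.8, 20.5 and 21.2 CPM (0.94, SE 0.38, adjusted p = 0.29). With Cdkn1a these were the 3 members higher in every TAC library (11.6% of all genes were), and in each replicate 2 was the lowest. Fkbp5 had a log2 fold change of 1.01 (SE 0.41, adjusted p = 0.30) and overlapped through the same replicate. The muscle ligases stayed near the shams, with -0.11 (SE 0.64, adjusted p = 0.98) for Fbxo32 and 0.01 (SE 0.30, adjusted p = 1.00) for Trim63. Zbtb16 (0.56, SE 0.66, adjusted p = 0.87) and Klf9 (-0.26, SE 0.65, adjusted p = 0.95) overlapped as well. Of all genes 2.22% were called in either direction (196 higher and 84 lower, 153 and 116 with upper quartile factors, and 274 and 206 with DESeq2), against Cdkn1a and, as a description, Klhl38 among the members. Fibroblast markers moved in the same comparison, 4 of 10 being called higher, with a summed level of 1478 to 4172 CPM in TAC 8W against 1621 to 2105 CPM in Sham 1 to 3, and their part in the differences of the members was not tested.

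Within the second set, where both groups received Sema for 4 weeks, TAC went with higher levels of Fkbp5, Cdkn1a and Trim63. Fkbp5 had 1.43, 1.90 and 1.85 CPM in Sham + Sema 4W and 13.2, 13.6 and 16.6 CPM in TAC 8W + Sema 4W, a log2 fold change of 3.08 with SE 0.48 and an adjusted p of 0.0020 by edgeR. Cdkn1a had 4.39, 6.63 and 5.19 CPM against 40.3, 37.6 and 15.7 CPM (2.52, SE 0.52, adjusted p = 0.012). Trim63 had 44.9, 106 and 55.4 CPM against 119.9, 116 and 213 CPM (1.12, SE 0.31, adjusted p = 0.041). All 3 were higher in every TAC library, as were Sgk1 (46.5, 46.0 and 42.1 CPM against 33.2, 7.58 and 8.52 CPM, 1.43, SE 0.43, adjusted p = 0.056) and Zbtb16 (9.79, 9.48 and 23.8 CPM against 1.34, 1.90 and 6.67 CPM, 2.21, SE 0.72, adjusted p = 0.073). Klf9 and Fbxo32 had log2 fold changes of 1.87 (SE 0.71, adjusted p = 0.12) and 2.12 (SE 0.71, adjusted p = 0.082) that rested on replicate 3 of TAC 8W + Sema 4W, at 19.7 CPM for Klf9 against 1.63 and 1.85 CPM, and at 26.5 CPM for Fbxo32 against 4.35 and 3.81 CPM. Without that library they were -0.28 and 0.60, and Zbtb16 was at 1.66. Klhl38 (-0.26, SE 0.33, adjusted p = 0.64) and Arrdc2 (0.34, SE 0.49, adjusted p = 0.69) overlapped, with 6.39 to 12.7 CPM against 6.54 to 15.8 CPM and 5.01 to 9.94 CPM against 2.33 to 12.4 CPM.

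Of all genes, 3.41% were called higher in this comparison (431 higher and 183 lower, 338 and 258 with upper quartile factors, 150 and 103 with limma-voom, and 320 and 226 with the GC and length trends removed), and 11% were higher in every library, against 3 and 5 of the 10 members. The median log2 fold change of the members was 1.65, against 0.08 over all genes tested. Fkbp5 was past the threshold in all 18 other settings, Cdkn1a in 16 and Trim63 in 12. Cdkn1a lost its call without Sham + Sema 4W replicate 1 (2.38) and with only the compared groups fitted (2.49). Trim63 lost it under the same pair of settings (0.89 and 1.1), without Sham + Sema 4W replicate 3 (0.99), without TAC 8W + Sema 4W replicate 3 (0.79), with all 6 shams as 1 mean (1.12) and with a replicate block (1.14). Each of Tsc22d3, Sgk1, Zbtb16, Klf9 and Fbxo32 passed under 2 to 4 of the settings. Fibroblast markers summed to 720 to 1089 CPM in TAC 8W + Sema 4W and 1085 to 2656 CPM in Sham + Sema 4W, with 2 of 10 called lower, and macrophage markers to 62.6 to 119 CPM and 109 to 361 CPM, with 1 of 9 called lower, and the part of either was not tested.

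Among mice with 8 weeks of Sema, TAC 8W + Sema 8W was above Sham + Sema 8W in every library for Fkbp5, Tsc22d3, Sgk1, Arrdc2, Cdkn1a and Trim63, 6 of 10 members, where 11.5% of all genes were. Fkbp5 had the largest log2 fold change of the members, 2.04 (SE 0.42), or 1.66 without Sham + Sema 8W replicate 3. Of all genes 0.737% were called higher, against 1 member, Fkbp5 (93 higher and 305 lower, 114 and 214 without mitochondrial genes, and 46 and 72 with the GC and length trends removed). Tsc22d3 followed with 1.24 (SE 0.38), Arrdc2 with 1.01 (SE 0.49), Sgk1 with 0.91 (SE 0.42), Cdkn1a with 0.78 (SE 0.48) and Trim63 with 0.61 (SE 0.30). Klhl38 had nearly the same level in both groups (0.25, SE 0.32). These libraries include those on which the list was chosen, so the values are a description and nothing is read from the counts of members.

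**Figure D3:**
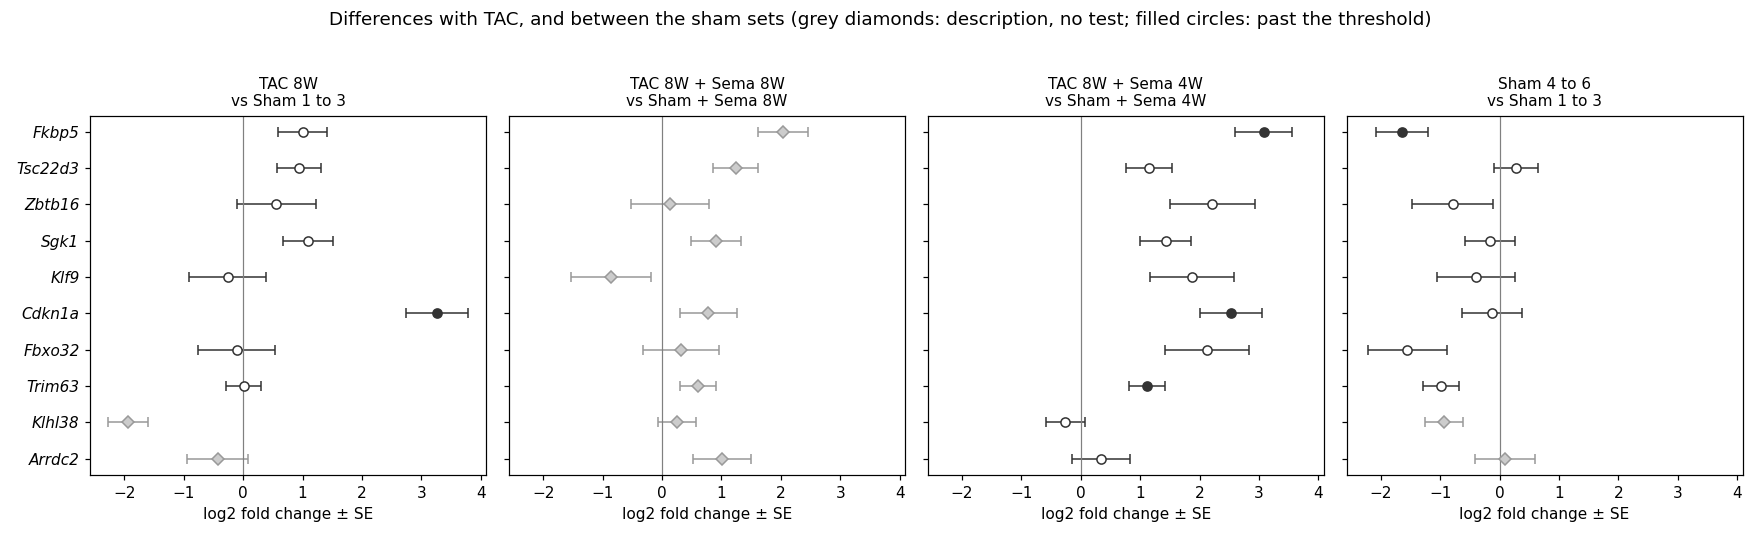
Differences of the members between TAC and sham mice without Sema, with 8 weeks and with 4 weeks of Sema, and between the 2 sham sets, as log2 fold change ± SE. Grey diamonds are values given as a description with no test, and circles are tested members, filled where past the adjusted threshold over all 12626 genes. Cdkn1a is filled without Sema (3.27) and with 4 weeks (2.52), Trim63 with 4 weeks (1.12), and Fkbp5 with 4 weeks (3.08) and between the sham sets (-1.64). Klhl38 lies left of 0 without Sema (-1.94).

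The TAC effect with 4 weeks of Sema did not pass the test of a difference from that without Sema for any member (0 by edgeR, limma-voom and DESeq2, with 6 genes or 0.0475% called by edgeR and, at an unadjusted p under 0.05, 4 of the 8 tested members and 11% of all genes). The differences were 2.07 (SE 0.62, edgeR adjusted p = 0.29) for Fkbp5, 2.14 (SE 0.96, adjusted p = 0.43) for Klf9, 2.24 (SE 0.96, adjusted p = 0.42) for Fbxo32 and 1.1 (SE 0.43, adjusted p = 0.38) for Trim63. Without TAC 8W + Sema 4W replicate 3 they were 0.07 for Klf9 and 0.81 for Fbxo32. For Klhl38, given as a description, it was 1.68 (SE 0.46). The 2 effects were measured in different library sets.

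The sham libraries alone showed how much of a member's level went with the set. Fkbp5 had 1.35, 3.33 and 2.71 CPM in Sham 4 to 6 against 8.99, 7.49 and 6.82 CPM in Sham 1 to 3, a log2 fold change of -1.64 with SE 0.44 and an adjusted p of 0.043 by edgeR that lost its call without any 1 of the 6 shams (-1.91 to -1.36). Trim63 had 64.4, 101 and 114 CPM against 171, 175 and 211 CPM (-0.99, SE 0.30, adjusted p = 0.079). Fbxo32 had 2.43, 3.26 and 11.3 CPM against 19.4, 17.9 and 12.9 CPM (-1.56, SE 0.67, adjusted p = 0.21), and Klhl38 had 8.01, 11.5 and 14.9 CPM against 23.3, 26.2 and 16.6 CPM (-0.94, SE 0.32). These 4 members were lower in every library of Sham 4 to 6, where 19% of all genes were, and 0.491% of genes were called lower (354 higher and 62 lower, 554 and 284 with DESeq2, and 387 and 135 with the GC and length trends removed). Tsc22d3 (0.28, SE 0.37, adjusted p = 0.72), Sgk1 (-0.16, SE 0.42, adjusted p = 0.86), Zbtb16 (-0.79, SE 0.68, adjusted p = 0.56), Klf9 (-0.40, SE 0.66, adjusted p = 0.78), Cdkn1a (-0.13, SE 0.50, adjusted p = 0.91) and Arrdc2 (0.10, SE 0.50) overlapped between the sham sets.

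**Figure D4:**
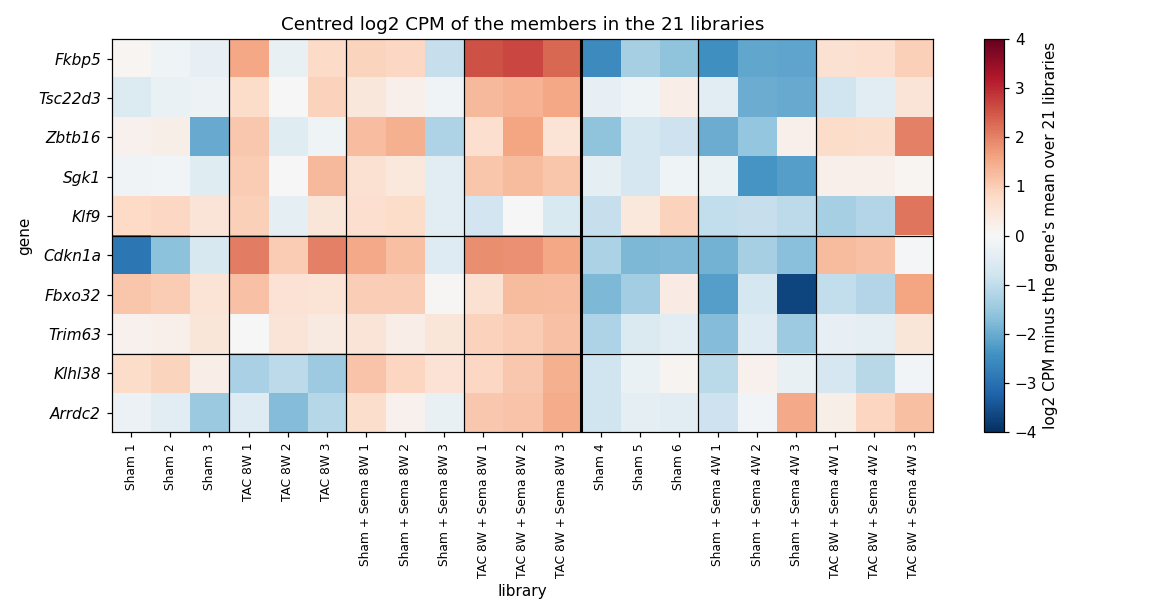
Heat map of log2 CPM of the members minus each gene's mean over the 21 libraries, with libraries in columns and genes in rows. Horizontal lines separate the 3 sets of members and the thick vertical line the 2 library sets. Fkbp5 is highest in the 3 TAC 8W + Sema 8W columns, Klhl38 is low in the 3 TAC 8W columns, and TAC 8W + Sema 4W 3 is the library with the highest Klf9, Fbxo32 and Zbtb16.

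Over the 21 libraries the profile of Klhl38 was most like those of Pim3, Klf15 and Herpud1, with a root mean square difference of centred log2 CPM of 0.498, 0.498 and 0.504 among 7678 tested genes with a mean of at least 5 CPM, where the SD of Klhl38 itself was 0.878. Pim3 is a kinase, Klf15 a zinc finger factor that glucocorticoids induce in muscle, and Herpud1 a protein of endoplasmic reticulum quality control. For Arrdc2 (SD 0.943) the nearest were Proser2 (0.543), Fam214a (0.658) and Ahsg (0.662). Among the members, Trim63 was the closest to Klhl38 (0.781, rank 488), Zbtb16 the closest to Arrdc2 (0.895, rank 375), and Klhl38 and Arrdc2 differed from each other by 0.944. These are descriptions over libraries that share group, set and depth.

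Genes of the same pathways were counted from fixed lists. The glucocorticoid receptor gene Nr3c1 had a level of 5.09 ± 1.36 CPM (SD, n = 3) in Sham 1 to 3, 5.73 ± 3.96 in TAC 8W and 1.13 ± 0.941 in TAC 8W + Sema 8W, and it was called in no comparison. Among 12 tested genes of the receptor and its handling, Hsp90aa1, a heat shock protein 90 that holds the receptor ready for hormone, was higher in TAC 8W than in Sham 1 to 3 (140.1 ± 1.20 against 33.6 ± 12.4 CPM, log2 fold change 2.06, SE 0.40, adjusted p = 0.0068 by edgeR). Sham 4 to 6 had 107.6 ± 20.6 CPM, also higher than Sham 1 to 3 (1.68, SE 0.39, adjusted p = 0.023). With 8 weeks of Sema after TAC it had 23.4 ± 13.2 CPM (-2.58, SE 0.40), and the co-repressor Ncor1 was lower there too (-1.20, SE 0.26). Of the list, 1 gene was higher in TAC 8W than in Sham 1 to 3, where 1.55% of all genes were called higher. With 8 weeks of Sema after TAC, 2 were lower and 0 higher, against 5.18% and 0.483% of all genes. Over all genes, 148 instead of 654 were called lower there with the GC and length trends removed. Values of the receptor genes with those trends removed are not given here.

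Among 23 other glucocorticoid-responsive genes, 6 were higher and 0 lower in TAC 8W than in Sham 1 to 3 (Rasd1, Ddit4, Cebpd, Errfi1, Cebpb and Nfkbia), where 1.55% of all genes were called higher, with a median log2 fold change of 0.77 against 0.08 over all genes. Rasd1, a small G protein first found as induced by dexamethasone, had 7.24 ± 0.749 against 1.40 ± 0.0802 CPM (2.37, SE 0.37, adjusted p = 0.0018), and was also higher in Sham 4 to 6 than in Sham 1 to 3 (1.65, SE 0.37, adjusted p = 0.017). Ddit4, an inhibitor of mTORC1, had 85.3 ± 23.8 against 18.4 ± 0.71 CPM (2.21, SE 0.36, adjusted p = 0.0024), and the transcription factor Cebpd had 41.0 ± 22.5 against 8.39 ± 0.482 CPM (2.29, SE 0.42, adjusted p = 0.0047). In TAC 8W + Sema 8W against TAC 8W, 1 of the 23 was higher, Klf15, at 45.2 to 58.8 CPM against 13.6 to 14.1 CPM (1.85, SE 0.31), and 19 had the higher value, against 0.483% and 43.1% of all genes. Sult1a1 (1.44, SE 0.46) and Lcn2 (2.64, SE 0.88) came next and did not pass. With 4 weeks of Sema, 6 were called higher in TAC than in sham mice (Ddit4, Pdk4, Pik3r1, Bcl6, Mt2 and Lcn2), against 3.41% of all genes. Ddit4, Bcl6, Pdk4 and Pik3r1 were higher in every TAC library, but Pdk4 (40.6 to 246 CPM) and Pik3r1 (1.96 to 27.3 CPM) were scattered there. Mt2 (50.03 to 1281 CPM against 11.8 to 80.1 CPM) and Lcn2 (2.92 to 215 CPM against 1.90 to 10.01 CPM) overlapped between the groups. In Sham + Sema 4W against Sham 4 to 6, 0 passed by edgeR, limma-voom or DESeq2. The lowest p there belonged to Bcl6 (-1.36, SE 0.39, adjusted p = 0.35), Rasd1 (-0.94, SE 0.36, adjusted p = 0.35) and Ptgds (1.19, SE 0.48, adjusted p = 0.35).

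Among 26 FoxO factors and other FoxO targets, 0 passed in TAC 8W against Sham 1 to 3 by edgeR, and the lowest p belonged to Irs2 (3.37, SE 1.05, adjusted p = 0.11), Gadd45a (-1.12, SE 0.38, adjusted p = 0.17) and Fbxo31 (-0.63, SE 0.22, adjusted p = 0.20). Fbxo31, an F-box protein, was the 1 gene of the list higher in TAC 8W + Sema 8W (51.2 to 62.6 CPM against 21.5 to 35.3 CPM, 0.95, SE 0.22), and Pink1 (0.60, SE 0.24) and Gabarapl1 (0.68, SE 0.28) did not pass. Foxo1 had log2 fold changes of -0.35 (SE 0.54, adjusted p = 0.92) with TAC and 0.62 (SE 0.54) with 8 weeks of Sema after TAC, and Foxo3 had -0.29 (SE 0.71, adjusted p = 0.95) and 0.51 (SE 0.71). With 4 weeks of Sema, Bnip3 and Gabarapl1, both of which act in autophagy, were higher in TAC than in sham mice. They were 2 of 26, where 3.41% of all genes were called higher. With 8 weeks of Sema after TAC, where Fbxo31 was the 1 of 26, the share of all genes was 0.483%.

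Of 12 tested muscle atrophy and denervation genes, Gadd45g was higher in TAC 8W than in Sham 1 to 3 (23.6 against 4.02 CPM, 2.56, SE 0.61, adjusted p = 0.027). With 8 weeks of Sema after TAC, 0 were called higher or lower, and 4 of 12 had the higher value, against 43.1% of all genes. Gadd45g (8.90 CPM, -1.41, SE 0.57), Fbxo30 (-1.61, SE 0.48) and Usp14 (-0.58, SE 0.23) had lower values in that comparison and did not pass. Fbxo40, Cblb and Gadd45g, 3 of 12, were called higher in TAC 8W + Sema 4W than in Sham + Sema 4W, although Gadd45g overlapped (8.58 to 101 CPM against 6.18 to 14.3 CPM). Of all genes, 3.41% were called higher there and 1.55% in TAC 8W against Sham 1 to 3. Of 12 Kelch-like and arrestin-domain relatives of Klhl38 and Arrdc2, 0 were called in TAC 8W against Sham 1 to 3 or with 8 weeks of Sema after TAC, with a median log2 fold change of 0.04 in the latter. The relative with the lowest p with TAC was Klhl33, with 1.16 against 7.68 CPM (-2.77, SE 0.75, adjusted p = 0.058). With 4 weeks of Sema, Klhl40, Klhl41 and Arrdc3 were called higher in TAC than in sham mice, 3 of 12, where 3.41% of all genes were called higher. Klhl40 overlapped between these groups (18.9 to 45.02 CPM against 12.4 to 21.4 CPM). Markers of skeletal muscle fibres, in which Klhl38 is also known to be expressed, summed to 1.89 to 10.8 CPM in the 21 libraries, and the fast myosin Myh4 had 0 counts in all of them.

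**Figure D5:**
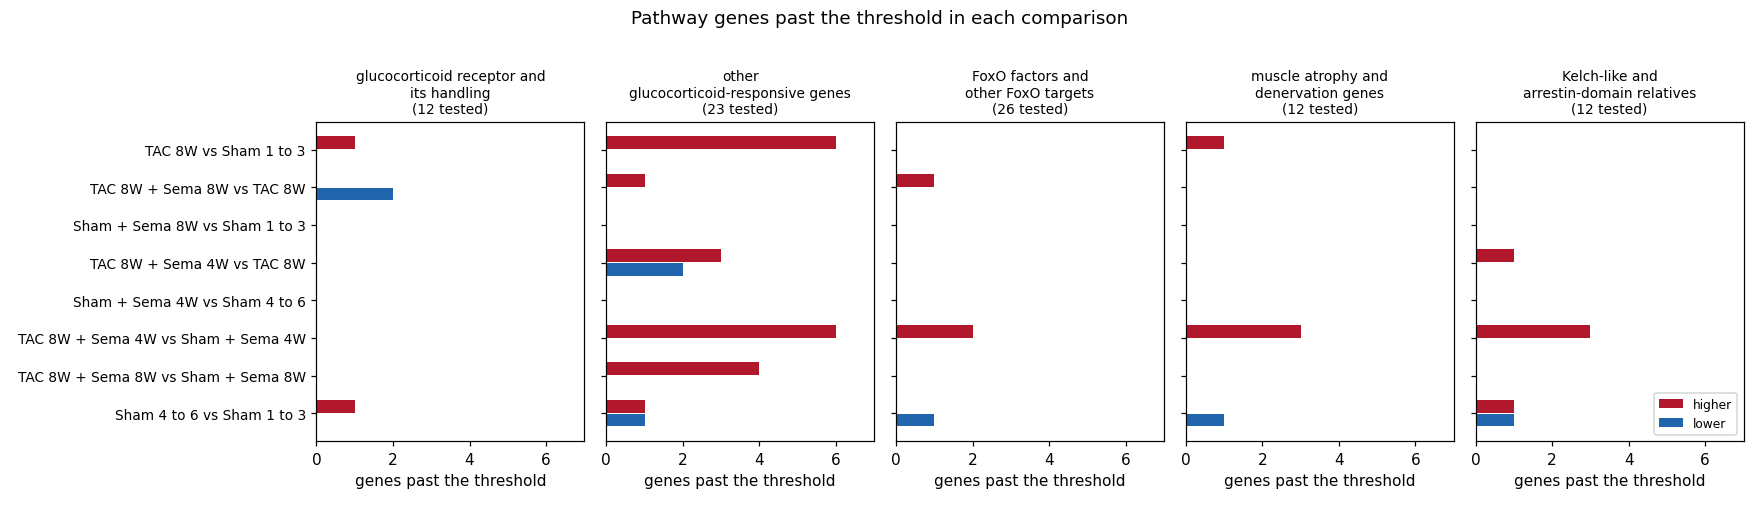
Number of genes of 5 pathway lists past the threshold in each comparison (higher in red, lower in blue, horizontal axis from 0). Other glucocorticoid-responsive genes have the most, with 6 of 23 higher in TAC 8W against Sham 1 to 3 and 6 in TAC 8W + Sema 4W against Sham + Sema 4W, and 1 in TAC 8W + Sema 8W against TAC 8W.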

How the data were processed

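RNA-seq was available for 21 libraries in 6 groups. According to the submitters' processing notes and the methods, the authors used cutadapt for trimming, hisat2 for alignment to mm10 and featureCounts 1.6.0 for counting per gene, and the deposited values are raw counts. Neither annotation nor strandedness is given in the sources used here. All 21 columns were matched to samples, in part by elimination: "high" was read as the 8-week dose and the unexplained "M" as the 4-week groups. Genes were named from GENCODE M21 (22041 of 22136). Totals of 8897837 to 17170139 counts limit precision for low genes.

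Counts were fitted with edgeR 4.0.16 (R 4.3.3) by the quasi-likelihood test, with TMM factors, a filter at 10 counts, 7 means (shams 1 to 3 and 4 to 6 apart) and Benjamini-Hochberg adjustment over 12626 genes. SEs are the log2 fold change divided by the root of F. The methods name limma, and the submitters' processing notes also list edgeR, with no version. Raw counts call for a count model, so limma was run as the alternative limma-voom 3.58.1, beside DESeq2 1.42.0. RPKM are CPM per kilobase of exon. The members and gene lists were chosen with earlier results of these data known. Named pathway genes were mostly among those with the lowest p, up to 3 a list, and not all of these are named. The comparisons used were TAC 8W against Sham 1 to 3, Sham + Sema 4W against Sham 4 to 6 and, without a p, TAC 8W + Sema 8W against TAC 8W. The receptor gene Nr3c1 and the factors Foxo1 and Foxo3 were named beside them. Genes called in TAC 8W + Sema 4W against Sham + Sema 4W were named beside their counts. Of the calls in the remaining comparisons, only some are named. For Klhl38 and Arrdc2 the 3 genes of the most similar profile were named. The alternatives were other size factors, filters, priors, sample sets and tools, a replicate block, leaving out each library and, chosen after seeing the data, removal of the trend of each library with GC content and gene length. No label states that samples of a group came from separate animals, so p-values measure the spread between these samples, which may be technical.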

Additional observations from a re-analysis of the deposited data

How the results depend on the processing

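Of the comparisons, the count of members called in TAC 8W against Sham 1 to 3 (2), in Sham + Sema 4W against Sham 4 to 6 (0) and for the difference of the TAC effects (0) stayed within 1.5 times under every alternative, and so did the count for TAC 8W + Sema 8W against TAC 8W (3), apart from leaving out libraries (1 to 3 members, 1 without TAC 8W + Sema 8W replicate 3). The list was chosen on that comparison, so nothing is read from its count. In Sham + Sema 8W against Sham 1 to 3, 1 member (Cdkn1a) was called with all 6 shams as 1 mean and 1 with DESeq2. Of all 12626 genes, 1 and 3 were. In TAC 8W + Sema 4W against TAC 8W, 0 members were called with only the compared groups fitted (117 of 11623 genes) and 0 with the replicate block (515 of 12416). With the sham difference subtracted 0 were called (2 of 12626 genes), and 0 to 4 with a library left out (305 to 3377 genes). There Klf9 ran from -1.76 to 0.84 as libraries were left out, against 0.37 with all. In TAC 8W + Sema 4W against Sham + Sema 4W, 1 member was called with only the compared groups fitted (6 of 10753 genes). With DESeq2 7 were called (1425 of 12626 genes), and 2 to 6 with a library left out (132 to 810 genes). In TAC 8W + Sema 8W against Sham + Sema 8W the counts were 2 with only the compared groups (148 of 11264 genes) and 0 with all 6 shams as 1 mean (137 of 12626). They were 2 with DESeq2 (815 genes) and 0 to 1 with a library left out (48 to 431 genes). In Sham 4 to 6 against Sham 1 to 3 the counts were 0 at 10 counts in every library (240 of 7818 genes) and 3 with only the compared groups (1507 of 11764). They were 0 with limma-voom (538 of 12626 genes), 2 with DESeq2 (838) and 0 with any library left out (47 to 260). The causes were not tested. The replicate numbers do not pair the samples: 11 of 45 same-numbered pairs had a correlation over 0.1, with a mean of -0.03 against 0.01 for other pairs. The replicate block left out Sham 4 to 6. With it, the members called in TAC 8W against Sham 1 to 3 were Cdkn1a and, as a description, Klhl38 (163 of 12416 genes). In TAC 8W + Sema 8W against TAC 8W, 3 members were called, a description as well (275 genes). In TAC 8W + Sema 4W against Sham + Sema 4W, 2 were called (230 genes).

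Over all genes, the count called ran over the alternatives other than left-out libraries from 163 to 548 in TAC 8W against Sham 1 to 3 (280 as reported), from 203 to 1079 in TAC 8W + Sema 8W against TAC 8W (715), from 2 to 1500 in TAC 8W + Sema 4W against TAC 8W (916), from 6 to 1425 in TAC 8W + Sema 4W against Sham + Sema 4W (614), from 118 to 815 in TAC 8W + Sema 8W against Sham + Sema 8W (398), from 240 to 1507 between the sham sets (416) and from 0 to 51 for the difference of the TAC effects (6). With a library left out these counts ran, in the same order, from 75 to 296, 158 to 906, 305 to 3377, 132 to 810, 48 to 431, 47 to 260 and 0 to 19. In Sham + Sema 4W against Sham 4 to 6 it was 918 with all 6 shams as 1 mean and 0 as reported. With upper quartile factors the median log2 fold change of all genes moved from 0.08 to -0.03 in TAC 8W against Sham 1 to 3, and with the GC and length trend removed it moved from -0.12 to 0.01 in TAC 8W + Sema 8W against TAC 8W (-0.01 without mitochondrial genes), from -0.03 to 0.07 in TAC 8W + Sema 4W against TAC 8W, from -0.07 to 0.12 in Sham + Sema 4W against Sham 4 to 6 and from 0.08 to -0.07 in TAC 8W + Sema 4W against Sham + Sema 4W. Depth limits Fbxo32, Fkbp5, Klf9, Arrdc2 and Zbtb16 most, which had 3 to 14 counts in their lowest libraries.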
